A study of Mus musculus with 11 samples.

Results

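A set of 10 genes of the marrow stromal niche were followed in the distal tibia of control mice and of mice in which bone marrow (BM) adipocytes were targeted for depletion. The members are the secreted or membrane-bound factors Cxcl12, Kitl, Il7, Il15 and Angpt1, the receptor Lepr, the adhesion molecule Vcam1, and the transcription factors Ebf1, Ebf3 and Foxc1. The members were chosen by name, as rows of the merged count table whose gene symbol is on this list. All 10 were found among the 22600 genes of the table, and all 10 were among the 16496 genes that passed the filter on low counts and were tested. Whole distal tibial bone was sequenced as stranded mRNA libraries of 7 BMAd-DTA and 4 Control mice, each library from a single mouse. Every mouse was 24 weeks old, of strain C57BL6/SJL, fed ad libitum and given no treatment.

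Mice of both groups carried Osterix-FLPo, a flippase expressed from the Osterix gene, and FAC, a Cre cassette in the Adipoq gene that the flippase turns into the sense direction. Controls (genotype BMAd-WT) therefore also had the altered Adipoq allele, which lowers circulating adiponectin. BMAd-DTA mice in addition carried ROSA-DTA, in which Cre removes a LoxP-flanked STOP cassette so that diphtheria toxin A is made and the cell dies. Cre activity from this pair of alleles is incomplete, rises with age, and reaches BM adipocytes together with a small subset of the Adipoq-expressing stromal precursors called MALPs. MALPs express Cxcl12 and Lepr, so the comparison asks what happened to the niche factor transcripts of whole bone when BM adipocytes were targeted.

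BM reticular cells are perivascular stromal cells whose long processes contact blood cells throughout the marrow. They retain hematopoietic stem cells through the chemokine CXCL12 and keep them alive through KIT ligand, and their interleukin 7 supports early B cells. The leptin receptor is the most widely used marker of these cells, and EBF1, EBF3 and FOXC1 are transcription factors that hold them in the reticular state and away from bone or fat. BM adipocytes descend from the same lineage.

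Totals were 16969529 to 18637663 counts in Control and 17128711 to 18432805 in BMAd-DTA libraries, so depth differed little. Marker genes of adipocytes were lower in BMAd-DTA mice for 15 of 15 genes tested. Their sums were 1958 to 3324 CPM (counts scaled to a library total of 1000000) in Control and 981 to 2313 CPM in BMAd-DTA libraries. By group mean, Car3 was the largest single part, at 899 CPM in Control and 521 CPM in BMAd-DTA libraries. Markers of osteoblasts and osteocytes were higher for 12 of 12, at 3075 to 13200 CPM against 15620 to 36480 CPM. Of these 12, the phosphatase gene Alpl passed edgeR's test (log2 fold change 1.16, adjusted p = 0.0326). DESeq2 called 9 of the 12 higher, against 2.78% of all genes called higher by it. The study had named some of the 12, such as Alpl, Bglap and Col1a1, as induced in these data. This list and the adipocyte list were chosen with earlier results of these data known. Their counts and shares are therefore a description and not a test. The osteoblast and osteocyte list ran from 0.26 for Runx2 to 1.35 for Col1a1 on the log2 scale. Col1a1 and Col1a2 made up most of its sums. They averaged 4720 and 3869 CPM in Control and 12020 and 9255 CPM in BMAd-DTA libraries. Skeletal muscle marker sums ran from 18.04 to 1351 CPM in Control and from 19.9 to 1050.0 CPM in BMAd-DTA libraries, with log2 fold changes from -1.76 for Myh1 to -0.22 for Myh2. The study's figure legend that covers this RNA sequencing opens with male mice and names no other sex for it. Every library held 13810 to 20260 counts of Xist, and 4 genes of the Y chromosome together held 0 to 1 count. These are the values of female and not of male mice, in every library, and so differ from the legend. The labels give no sex.

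The start regions of 3 members are shown because Cxcl12 and Ebf3 had the highest Pearson r of log2 CPM across libraries of any pair of members (0.892), whereas Lepr had the largest difference between the groups. Each run is the 250 bases before the RefSeq transcript start (GRCm38.p6), read 5′ to 3′ on the strand of the gene. Capitals mark GC boxes (GGGCGG) and the core of an EBF motif (CCCNNGGG), each searched on both strands.
Cxcl12, chr6:117168285-117168534, plus strand: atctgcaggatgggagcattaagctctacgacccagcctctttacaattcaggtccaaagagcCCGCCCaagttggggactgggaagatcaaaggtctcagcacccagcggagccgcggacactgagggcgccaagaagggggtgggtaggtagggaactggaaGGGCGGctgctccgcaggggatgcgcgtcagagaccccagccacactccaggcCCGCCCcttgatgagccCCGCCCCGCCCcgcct
Ebf3, chr7:137314446-137314695, minus strand: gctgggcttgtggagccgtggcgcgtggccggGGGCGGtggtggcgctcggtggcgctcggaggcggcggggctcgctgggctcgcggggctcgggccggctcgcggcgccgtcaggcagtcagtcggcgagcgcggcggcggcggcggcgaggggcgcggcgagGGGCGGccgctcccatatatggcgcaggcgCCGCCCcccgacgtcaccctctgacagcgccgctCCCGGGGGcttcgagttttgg
Lepr, chr4:101717157-101717406, plus strand: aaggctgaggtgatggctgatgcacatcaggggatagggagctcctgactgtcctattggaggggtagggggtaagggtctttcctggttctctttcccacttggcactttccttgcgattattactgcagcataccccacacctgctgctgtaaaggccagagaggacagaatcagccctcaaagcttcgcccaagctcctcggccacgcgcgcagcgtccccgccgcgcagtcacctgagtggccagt
The Cxcl12 run held 5 GC boxes, the last pair of them overlapping, in sequence with 64.4% G and C. The Ebf3 run held 3 GC boxes and 1 EBF core, with 80.0% G and C. The Lepr run held neither motif, at 58.4% G and C, and a further Lepr start in the table, not printed, held 1 GC box and no EBF core. Of the members, 6 had an entry, with 8 starts in all, and 5 of these 8 held a GC box, against 32.7% of 32851 promoters of the same length. The median over all promoters was 52.4% G and C, below each of the 3 printed runs. Promoters of like G and C content were not compared. The EBF core was in 1 of the 8 and in 11.8% of all promoters. Neither the longer EBF palindrome (0.779% of all promoters) nor the forkhead motif TGTTTAC (3.17%) was found in a member's start region, and the TATA box TATAAA (12.4%) was found for Kitl only. A match to these letters is a description of the sequence and not a bound site.

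Cxcl12 stood far above the other members in abundance. Levels can be compared between genes only per length, so CPM were divided by the kilobases of exon in the GENCODE M21 annotation. Cxcl12 averaged 414 ± 81.5 CPM per kb (SD over all 11 libraries), which was 7.55-fold the next member, Vcam1, at 54.9 ± 5.44 CPM per kb. Its counts alone made up 0.338% of all counts in Control and 0.339% in BMAd-DTA libraries, and it ranked 15 among the 16496 genes by CPM. Lepr followed at 31.1 ± 8.61 CPM per kb and Kitl at 14.5 ± 2.59 CPM per kb. Cxcl12, Vcam1 and Lepr were each above the next gene in all 11 libraries, and Kitl was above Ebf1 in 10 of 11.

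The 3 transcription factors and Angpt1 lay close together. Ebf1 had 11.3 ± 2.36 CPM per kb, Ebf3 9.38 ± 2.14, Angpt1 8.84 ± 1.75 and Foxc1 7.41 ± 0.941. Ebf1 exceeded Ebf3 in 7 of 11 libraries, Ebf3 exceeded Angpt1 in 7 and Angpt1 exceeded Foxc1 in 9. The order within this cluster was therefore not the same in every library, and differences between neighbours were not tested. The interleukins were the scarcest, with Il15 at 3.02 ± 0.679 and Il7 at 1.89 ± 0.422 CPM per kb. Foxc1 was above Il15, and Il15 above Il7, in all 11 libraries.

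**Figure D1:**
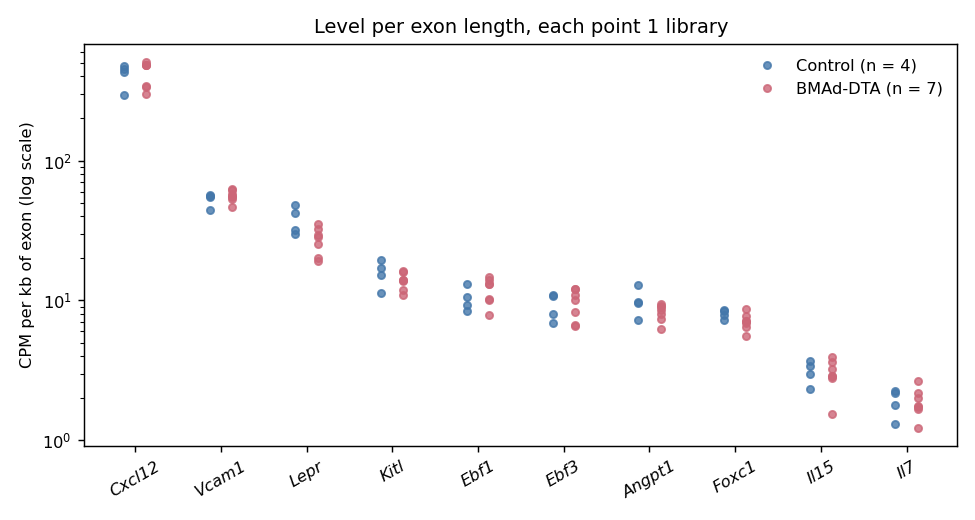
Level of each member in CPM per kb of exon on a log axis, each point 1 library (4 Control, 7 BMAd-DTA). Cxcl12 lies between 294 and 504 CPM per kb, above every other member in every library, and Il7 lies lowest on average at 1.89 CPM per kb.

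None of the 10 members passed the test of BMAd-DTA against Control (edgeR's quasi-likelihood test, Benjamini-Hochberg adjusted p under 0.05), and their smallest adjusted p was 0.182, for Lepr. Over all genes the same test called 13 of 16496, or 0.0788% (0.0727% higher and 0.00606% lower), so that few calls were made anywhere in the table. At an unadjusted p under 0.05, edgeR gave 1 member, Lepr, which was lower, against 16.4% of all genes in either direction and 8.53% lower. DESeq2 gave none of the 10 at an adjusted p under 0.05, against 5.42% of the 15583 genes it adjusted. No member had groups that did not overlap in CPM, against 2.81% of all genes in either direction and 1.04% lower. The fitted level in BMAd-DTA mice was above Control for 5 members and below it for 5. Their median log2 fold change was -0.02, beside 0.0018 over all genes tested. In bulk RNA of whole bone, fewer cells of a type and less RNA per cell cannot be told apart.

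**Figure D2:**
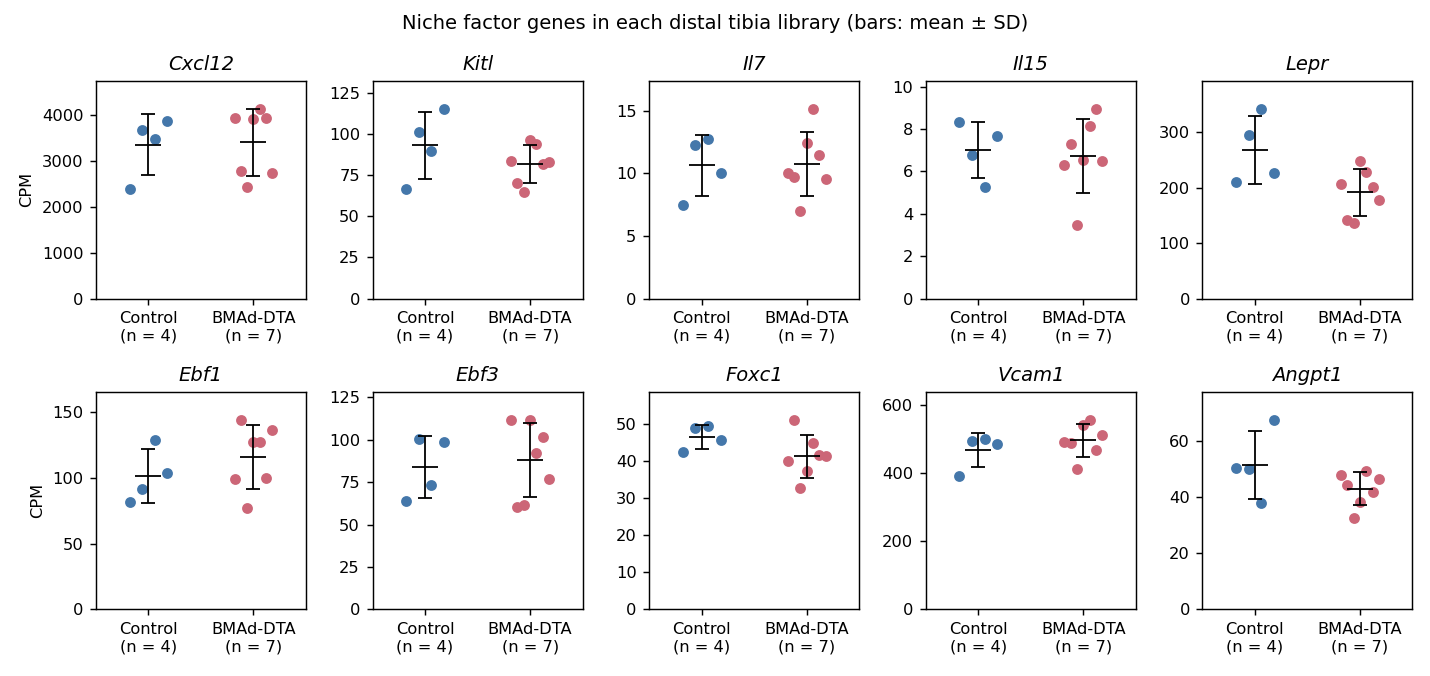
CPM of the 10 members in each library, with the mean and SD of 4 Control and 7 BMAd-DTA mice. The groups overlap in every panel, and Lepr has the widest gap between means, at 268 against 192 CPM.

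Cxcl12 (ENSMUSG00000061353.11, chromosome 6, 117168535 to 117181367 of GRCm38, the assembly also named mm10) encodes the chemokine that holds stem cells and lymphoid precursors in the marrow. Its 4 Control libraries had 2399, 3666, 3485 and 3877 CPM, and the 7 BMAd-DTA libraries ran from 2427 through a median of 3915 to 4121 CPM. The groups covered nearly the same range, and both held low and high libraries. The fitted log2 fold change was 0.02 (SE 0.18, edgeR adjusted p = 0.974), and its 95% interval reached from 0.779-fold to 1.32-fold. An exact permutation test over the 330 splits of the 11 mice gave p = 0.967. Fold changes of whole-bone Cxcl12 within that interval, in either direction, remain compatible with these values, and no detection limit was computed.

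The spread of Cxcl12 within groups was itself uneven. Control 1 and BMAd-DTA 2, 3 and 7 lay between 2399 and 2771 CPM, and the other 7 libraries lay between 3485 and 4121 CPM, with none in the gap. The same 4 libraries also held the 4 lowest levels of Il7. They comprised 1 Control and 3 BMAd-DTA mice, and the labels name no batch that these mice share.

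Of the receptor genes of CXCL12, Ackr3 had groups that did not overlap and Cxcr4 had groups that did. Cxcr4, through which blood cells respond to the chemokine, had 188 ± 16.1 CPM in Control and 188 ± 15.9 CPM in BMAd-DTA libraries, with a log2 fold change of 0.0035 (SE 0.076) that turned to -0.0069 when library totals replaced TMM scaling. Dpp4, a peptidase that inactivates CXCL12, had a log2 fold change of 0.16 (SE 0.23). Ackr3 encodes the atypical receptor that takes up CXCL12 and removes it. It had 41.8, 33.7, 33.0 and 31.6 CPM in Control libraries and ran from 43.9 through a median of 50.1 to 67.3 CPM in BMAd-DTA libraries. Every BMAd-DTA library was above every Control library, which held for 1 of the 15 partner genes, against 1.78% of all genes. Ackr3 had a fitted log2 fold change of 0.59 (SE 0.12), with an adjusted p of 0.0675 by edgeR, which missed the threshold, and of 0.000727 by DESeq2, which passed it. Of the 15 partner genes DESeq2 called 1, against 2.78% of all genes called higher by it. Leaving out each mouse in turn gave edgeR adjusted p values for Ackr3 from 0.0562 to 0.161. BMAd-DTA 3 and 2, the libraries with the highest Ackr3 levels, also had the highest osteoblast and osteocyte sums, at 36480 and 32260 CPM. The order did not hold within the rest of each group, since Control 1 had the lowest osteoblast sum (3075 CPM) and the highest Control level of Ackr3, and BMAd-DTA 4 had the lowest Ackr3 of its group with a sum of 23810 CPM. The part of bone-forming cells in the Ackr3 difference was not tested.

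Lepr (ENSMUSG00000057722.17, chromosome 4, 101717404 to 101815352) encodes the receptor for leptin and had the lowest fold change of the 10. Control libraries had 209.9, 295, 341 and 226 CPM. BMAd-DTA libraries had 207, 142, 136, 249, 229, 201 and 179 CPM. Of the 7 BMAd-DTA libraries, 5 lay below every Control library, and the other 2 (BMAd-DTA 4 and 5) lay within the Control range. The fitted log2 fold change was -0.48 (SE 0.17), or 0.715-fold with a 95% interval from 0.552-fold to 0.927-fold. Its unadjusted p by edgeR was 0.0154 and its adjusted p 0.182, while DESeq2 gave an adjusted p of 0.0694 and the exact permutation test p = 0.0515. Lepr ranked 726 from the bottom among 16496 log2 fold changes. No correction over all genes was passed, so the lower mean of Lepr is reported as a value and not as a change.

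The 3 libraries with the least Lepr had the lowest sums of adipocyte markers and of endothelial markers. BMAd-DTA 2, 3 and 7 had the 3 lowest Lepr levels and also the 3 lowest sums of the 15 adipocyte markers, at 1039, 1298 and 981 CPM. Their endothelial marker sums, at 1056, 964 and 1015 CPM, were the 3 lowest of all libraries as well. They were also among the libraries low in Cxcl12, at 2771, 2427 and 2731 CPM. Of the 15 adipocyte markers, 1 passed edgeR's test and was lower: the adipokine gene Retn, with a log2 fold change of -1.38 (adjusted p = 0.0205). DESeq2 called 4 of the 15 lower. Of the 15583 genes it adjusted, 412 were called lower, and 5.42% were called in either direction. The adipocyte list was chosen with earlier results of these data known. The range within that list went from -1.70 for the adrenergic receptor gene Adrb3 to -0.21 for the fatty acid transporter gene Cd36. The part of adipocyte RNA, or of a wider shift in library makeup, in the lower Lepr mean was not tested. With the skeletal muscle score as a covariate, the log2 fold change of Lepr was -0.41 (edgeR adjusted p = 0.302).

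Lep, the adipocyte hormone that binds the receptor, is a member of both the partner list and the adipocyte list. It was barely detected, with 6.999, 3.53, 7.39 and 2.13 CPM in Control libraries and 0.533 through a median of 2.58 to 5.03 CPM in BMAd-DTA libraries. The groups overlapped. Lep had a log2 fold change of -0.99 (SE 0.49), an edgeR adjusted p of 0.329 and a standard error larger than that of any niche member.

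**Figure D3:**
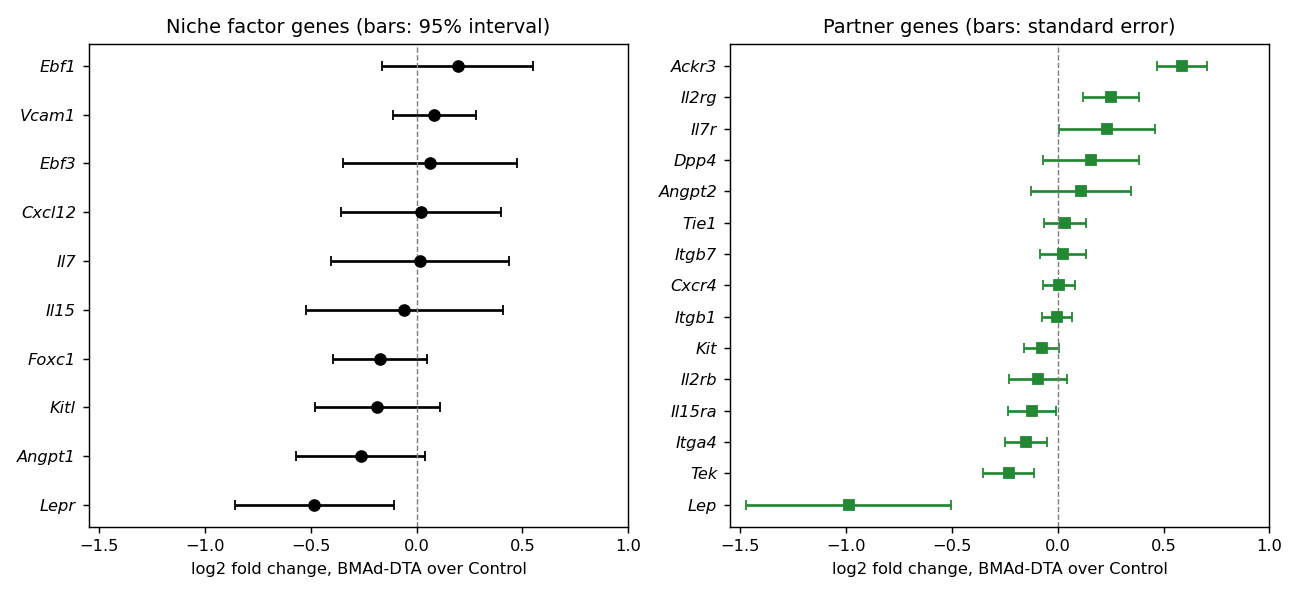
Fitted log2 fold change of BMAd-DTA over Control for the 10 members (left, bars are 95% intervals) and 15 partner genes (right, bars are standard errors). Only the interval of Lepr leaves out 0 among the members, before any adjustment, and Ackr3 lies highest among the partners at 0.59.

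Kitl (ENSMUSG00000019966.18, chromosome 10, 100015630 to 100100416) encodes stem cell factor, the ligand of KIT, which is made in membrane-bound and soluble forms from alternative transcripts that counts per gene do not separate. Control libraries had 66.8, 101, 89.8 and 115 CPM, and BMAd-DTA libraries ran from 65.0 through a median of 82.6 to 96.3 CPM. The lowest Control library lay beside the lowest BMAd-DTA library, and the highest 2 levels were both Controls. Kitl had a log2 fold change of -0.19 (SE 0.14), or 0.879-fold with an interval from 0.716-fold to 1.08-fold, and neither edgeR (adjusted p = 0.546) nor the exact permutation test (p = 0.318) separated the groups. The log2 fold change of Kitl was -0.32 without Control 1 and -0.07 without Control 4 (edgeR adjusted p = 0.388 and 0.868). Kit, the receptor on stem cells and mast cells, had 129 ± 12.7 CPM in Control and 122 ± 11.1 CPM in BMAd-DTA libraries (log2 fold change -0.08, SE 0.08).

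The balance of Kitl and Cxcl12 within a library does not depend on how libraries are scaled. The log2 ratio of Kitl to Cxcl12 was -5.18 ± 0.082 in Control (n = 4) and -5.36 ± 0.19 in BMAd-DTA mice (n = 7). The difference of -0.18 was not separated by an exact permutation test (two-sided p = 0.109). Its range over the mice left out in turn was -0.24 to -0.15, with p between 0.0238 and 0.225 in exact permutation tests, and the smallest of these came without BMAd-DTA 7.

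Il7 (ENSMUSG00000040329.14, chromosome 3, 7569994 to 7613760) encodes the interleukin that early B cells need. It had 7.44, 12.2, 12.8 and 10.1 CPM in Control libraries and ran from 6.98 through a median of 10.02 to 15.1 CPM in BMAd-DTA libraries. The BMAd-DTA group held both the lowest and the highest level. For Il7 the log2 fold change was 0.02 (SE 0.20), with an interval from 0.755-fold to 1.36-fold. Il7r, its receptor on lymphoid precursors, had 40.5 ± 13.8 against 47.6 ± 11.5 CPM (log2 fold change 0.23, SE 0.23, edgeR adjusted p = 0.672). The sums of 13 B lineage markers ran from 418 to 1013 CPM in Control and from 691 to 1755 CPM in BMAd-DTA libraries, with 13 of 13 genes higher in the fit and none past the test, from 0.17 for Rag1 to 0.66 for Cd79a on the log2 scale.

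Il15 (ENSMUSG00000031712.10, chromosome 8, 82331632 to 82403222) encodes the interleukin that sustains natural killer cells. Its levels were 8.32, 6.77, 5.26 and 7.67 CPM in Control libraries and 3.46 through a median of 6.56 to 8.92 CPM in BMAd-DTA libraries. BMAd-DTA 3 was far below the rest of its group. For Il15 the log2 fold change was -0.06 (SE 0.22) with that library and 0.06 without it, and the edgeR adjusted p was 0.929 and 0.909. Its partners, the presenting receptor chain Il15ra (log2 fold change -0.12, SE 0.11), the signalling chain Il2rb (-0.09, SE 0.14) and the common chain Il2rg (0.25, SE 0.13), had edgeR adjusted p values of 0.649, 0.794 and 0.36. Markers of natural killer cells summed to 106 to 133 CPM in Control and 94.4 to 143 CPM in BMAd-DTA libraries, with log2 fold changes from -0.38 for Ncr1 to 0.39 for Eomes.

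Angpt1 (ENSMUSG00000022309.9, chromosome 15, 42424723 to 42676977) encodes angiopoietin 1, the ligand of the endothelial and stem cell receptor TEK. Control libraries had 50.4, 50.2, 37.9 and 67.4 CPM, and BMAd-DTA libraries ran from 32.6 through a median of 44.3 to 49.2 CPM. A single Control library was among the 3 lowest of all 11, and the 3 highest were all Controls. Fitted over all mice, the log2 fold change was -0.26 (SE 0.14), or 0.833-fold with an interval from 0.675-fold to 1.03-fold. The edgeR adjusted p was 0.375 and the exact permutation test gave p = 0.167. Without Control 3, the same difference in mean log2 CPM went from -0.24 to -0.38 and the exact permutation p to 0.025, which was not adjusted for the members tested.

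Receptor genes of the angiopoietin pathway did not pass the test either. Tek had 39.8 ± 5.06 CPM in Control and 33.8 ± 5.14 CPM in BMAd-DTA libraries (log2 fold change -0.23, SE 0.12, edgeR adjusted p = 0.347). Tie1, the co-receptor, had a log2 fold change of 0.03 (SE 0.10) and Angpt2, the context-dependent antagonist, of 0.11 (SE 0.23). The endothelial marker sums were 1202 to 1331 CPM in Control and 964 to 1350.0 CPM in BMAd-DTA libraries, and none of the 11 markers tested passed edgeR's test, with log2 fold changes from -0.25 for Vwf to 0.06 for Esam.

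Vcam1 (ENSMUSG00000027962.14, chromosome 3, 116109949 to 116129688) encodes the adhesion molecule by which stroma, endothelium and marrow macrophages bind blood cells. The ratio of its highest to its lowest library, 1.41, was the smallest of the members. It had 394, 494, 502 and 485 CPM in Control libraries and 414 through a median of 494 to 557 CPM in BMAd-DTA libraries. Control 1 lay apart from the other Controls, which lay within 485 to 502 CPM. For Vcam1 the log2 fold change was 0.08 (SE 0.09), or 1.06-fold with an interval from 0.926-fold to 1.21-fold, the narrowest of the 10 on the log2 scale. Its ligand chains had log2 fold changes of -0.15 (SE 0.10) for Itga4, -0.0033 (SE 0.071) for Itgb1 and 0.02 (SE 0.11) for Itgb7. Itgb1 turned to 0.010 under upper quartile scaling and Itgb7 to -0.0052 with the muscle covariate. Sums of 10 macrophage markers were 1560.0 to 1585 CPM in Control and 1437 to 1716 CPM in BMAd-DTA libraries. Within that list Cd68 was higher in all 7 BMAd-DTA libraries than in any Control (log2 fold change 0.43, adjusted p = 0.072 by edgeR and 0.00212 by DESeq2). Such a gap was seen for 1 of the 10 markers, against 1.78% of all genes. DESeq2 called 1 of the 10, against 2.78% of all genes called higher by it. Adgre1 had the lowest value (-0.30, edgeR adjusted p = 0.209).

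Ebf1 (ENSMUSG00000057098.14, chromosome 11, 44617317 to 45008091) is shared between stroma and the B lineage, where it is a commitment factor. It had 81.5, 91.1, 128 and 104 CPM in Control libraries and ran from 77.0 through a median of 127 to 144 CPM in BMAd-DTA libraries. Ebf1 had a log2 fold change of 0.19 (SE 0.17), the highest of the 10, with an interval from 0.893-fold to 1.47-fold and an edgeR adjusted p of 0.615. It was 0.10 without Control 1 and 0.33 without Control 3 (edgeR adjusted p = 0.882 and 0.31). Ebf1 levels went with the B lineage marker sums. BMAd-DTA 2 and 7 had the highest Ebf1 levels (144 and 136 CPM) and the highest B lineage sums (1755 and 1330.0 CPM), and BMAd-DTA 3, Control 1 and Control 2 had the lowest 3 of both. Which share of Ebf1 came from stroma was not tested.

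Ebf3 (ENSMUSG00000010476.14, chromosome 7, 137193673 to 137314445), which is known from reticular stroma and not from B cells, had 63.8, 100.2, 73.6 and 98.8 CPM in Control libraries. BMAd-DTA libraries ran from 60.6 through a median of 92.2 to 112 CPM. The groups spanned much the same range, with a log2 fold change of 0.06 (SE 0.19) and an interval from 0.787-fold to 1.39-fold. The log2 ratio of Ebf1 to Ebf3 was 0.27 ± 0.41 in Control (n = 4) and 0.41 ± 0.49 in BMAd-DTA mice (n = 7), a difference of 0.14 with an exact permutation p of 0.661.

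Foxc1 (ENSMUSG00000050295.4, chromosome 13, 31806633 to 31812476), a gene of 1 exon, encodes the forkhead factor needed to form the reticular niche. Its Control levels were tight at 42.4, 48.9, 49.6 and 45.6 CPM, and BMAd-DTA libraries ran from 32.7 through a median of 41.6 to 51.1 CPM. As for Lepr, 5 of 7 BMAd-DTA libraries lay below every Control, but BMAd-DTA 2 exceeded all 4 Controls. The fit gave Foxc1 a log2 fold change of -0.17 (SE 0.10), or 0.887-fold with an interval from 0.761-fold to 1.03-fold, an edgeR adjusted p of 0.431 and an exact permutation p of 0.127. Leaving out BMAd-DTA 2 gave a difference in mean log2 CPM of -0.23 and an exact permutation p of 0.0286, not adjusted for the members tested, and an edgeR adjusted p of 0.261.

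Several members were low in the same mice. BMAd-DTA 3 was below the Control mean for all 10 members, was the lowest of all 11 libraries for 7 and was among the lowest 4 for all 10. Control 1 was below the mean of its group for 9 of 10 and the lowest of all for 2. At the other end, BMAd-DTA 5 was the highest of all for 3 members and among the lowest 4 for none. The osteoblast and osteocyte sum, most of it Col1a1 and Col1a2, was highest in BMAd-DTA 3 at 36480 CPM and lowest in Control 1 at 3075 CPM. The part of bone cell RNA in the low niche levels of these libraries was not tested. Without BMAd-DTA 3 the median log2 fold change of the members was 0.07, and without Control 1 it was -0.12.

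**Figure D4:**
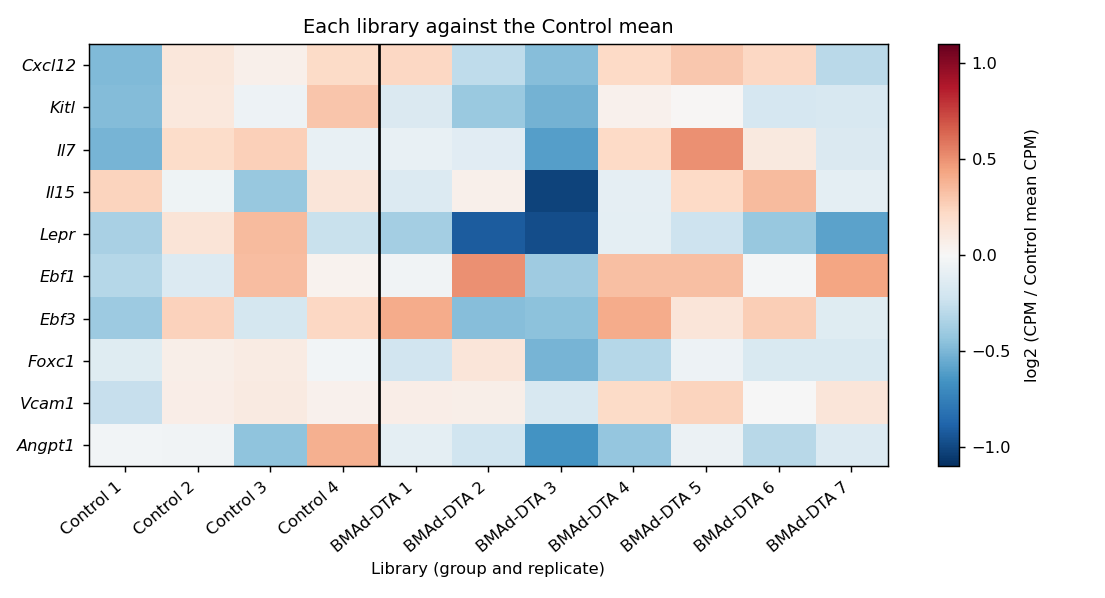
Colour gives the log2 of each library's CPM over the Control mean, for 10 members (rows) in 4 Control and 7 BMAd-DTA libraries (columns, split by the black line). BMAd-DTA 3 is blue in all 10 rows and Control 1 in 9, while Lepr is below the Control mean in all 7 BMAd-DTA libraries.

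The members tended to be high or low together across libraries. Of 45 pairs, 44 had a Pearson r of log2 CPM above 0 over the 11 libraries, with a median r of 0.431, or 0.46 after removal of the group means. The points share the library and its makeup of cells, so these correlations describe the libraries and carry no p. Cxcl12 was most like Lama1 (a laminin chain, r = 0.901), Ebf3 (0.892) and Esm1 (0.884) among 12972 genes compared. Esm1 is itself on the list of other reticular stroma genes. Genes whose levels were like those of Lepr included Zfp423 (a regulator of adipocyte precursors, r = 0.962) and Il17re (0.923). Ebf1 was most like Arpc5l (r = 0.964), Foxo1 (0.961) and Spib (0.955), of which Foxo1 and Spib are known from B cells. Kitl was most like Ptcd2 (r = 0.869), Mx1 (0.838) and the macrophage receptor gene Mrc1 (0.819).

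Other genes known from the reticular stroma were read beside the members. Their list was chosen with earlier results of these data known, so its shares beside all genes are a description and not a test. Of 30 such genes tested, 18 had a fitted level above Control and 12 below it, and the median of their log2 fold changes was 0.06. None passed edgeR's test, 9 had an unadjusted p under 0.05 and all 9 of these were higher, against 7.89% of all genes that were higher at that level. DESeq2 called 5 of the 30, all higher, against 2.78% of all genes called higher by it. These were Igfbp4, Csf1, Gas6, Pdgfra and Snai2, named here after their values were seen. Igfbp4, a binding protein of insulin-like growth factors, had the highest log2 fold change of the list at 0.53 (SE 0.15, edgeR adjusted p = 0.117) and went from 844 ± 204 to 1219 ± 196 CPM. Csf1, the macrophage growth factor, went from 93.4 ± 12.8 to 133 ± 18.96 CPM (log2 fold change 0.51, edgeR adjusted p = 0.072). Csf1, Gas6 and Snai2, 3 of the 30, were higher in every BMAd-DTA library than in any Control, against 1.78% of all genes. Grem1, a BMP antagonist, had the lowest log2 fold change at -0.61 (SE 0.31, edgeR adjusted p = 0.347). These genes are not limited to reticular cells, and osteoblast markers were higher in the same libraries. The part of bone cells in these differences was not tested.

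Of 20 other niche signals listed, 15 passed the filter on low counts. Csf2, Il11 and Dlk1 did not, and Csf3 and Il3 were not analysed here. Of the 15 tested, 10 lay above Control and 5 below it in the fit, their median was 0.04 on the log2 scale, and none passed edgeR's test. Those with an unadjusted p under 0.05 were 2, Ccl2 and Lif, both higher, against 7.89% of all genes. DESeq2 called 1 of the 15, Ccl2, against 2.78% of all genes called higher. The list of niche signals was also chosen with earlier results of these data known. Ccl2, a chemokine that draws monocytes, had 1.79 ± 0.439 CPM in Control and 4.86 ± 1.56 CPM in BMAd-DTA libraries, at 24 to 129 counts per library. Its log2 fold change was 1.44 (SE 0.27) in edgeR. The edgeR adjusted p of 0.0675 missed the threshold, and the DESeq2 adjusted p of 7.63e-05 passed it. All 7 BMAd-DTA libraries were above all 4 Controls for 1 of the 15, Ccl2, against 1.78% of all genes. Lif, a cytokine of the interleukin 6 family, had 2.22 ± 1.38 against 3.76 ± 0.936 CPM (log2 fold change 0.76, edgeR adjusted p = 0.263), and the matrix phosphoprotein gene Spp1 had 365 ± 209 against 621 ± 288 CPM (0.77, edgeR adjusted p = 0.339). Flt3l, a growth factor for progenitors, had 16.8 ± 2.11 against 17.3 ± 1.79 CPM, and the Notch ligand Jag1 had 14.8 ± 3.14 against 15.3 ± 1.65 CPM. Thpo, the platelet growth factor, had the lowest log2 fold change at -0.62 (SE 0.32, edgeR adjusted p = 0.348), at under 1 CPM in both group means.

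**Figure D5:**
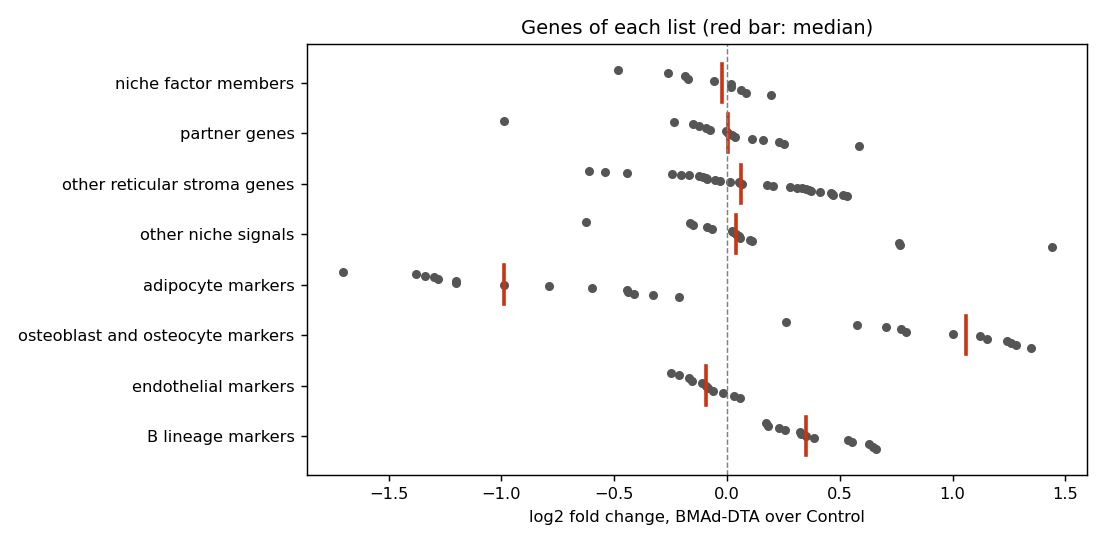
Log2 fold change of BMAd-DTA over Control for each gene of 8 lists (grey points), with the median of each list as a red bar. The medians are -0.02 for the members and 0.06 for other reticular stroma genes, beside -0.99 for adipocyte and 1.06 for osteoblast and osteocyte markers.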

How the data were processed

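RNA of whole distal tibiae was sequenced by the authors as stranded paired-end mRNA libraries. Per the submitters' processing notes and the methods, reads were checked with FastQC 0.11.9 and aligned to mm10 with STAR. The authors deposited raw counts per gene without normalization, as 1 merged table beside the files of single libraries. The annotation release is not given in the sources used here, and GENCODE M21 on GRCm38 was joined for positions and exon lengths. Columns were matched to mice by the animal codes in the sample titles.

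The test on the merged table was edgeR 4.0.16 under R 4.3.3 (low counts removed by filterByExpr, TMM scaling, glmQLFit and glmQLFTest, genotype only, two-sided, Benjamini-Hochberg adjustment over 16496 genes, threshold 0.05). CPM use TMM-scaled library sizes, and log2 CPM a prior count of 2. Intervals are 95% intervals from the fit with 13 degrees of freedom. Exact permutation tests were two-sided over 330 splits, with a smallest possible p of 0.00303. P-values judge the difference between the groups against the variation between mice. Alternatives included DESeq2 1.42.0, limma-voom 3.58.1, other scalings, filters and count tables, a skeletal muscle covariate, and each mouse left out. The steps were tested on simulated data. The members and gene lists were chosen with earlier results of these data known. The text names all members, all partner genes, the highest, lowest and edgeR-called genes of the other lists discussed, and the 3 genes most like each of Cxcl12, Kitl, Lepr and Ebf1. For Lepr, 1 of these 3 is not reported here. A few genes named for their place in a pathway or among the calls of DESeq2 (Flt3l, Jag1, Lif, Spp1, Csf1, Gas6, Pdgfra, Snai2) were added after their values were seen.

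Counts on the opposite strand were 0.0238% to 1.84% of a member's counts, highest for Il7, which has an antisense gene, Gm16685. Depth was 16969529 to 18637663 counts per library.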

Additional observations from a re-analysis of the deposited data

Results flagged for a closer look

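The level of Vcam1 in Control 1, 393.8 CPM, stood apart from the other 3 Controls, which had 494, 502 and 485 CPM. Its gap to the nearest Control was 0.846 of the range of the group, above Dixon's 95% critical value for 4 samples. It was 1 of 20 groups examined (10 members in each of 2 genotypes), and chance flags about 1 group in 20. Without Control 1, the log2 fold change of Vcam1 was 0.0091 in place of 0.08, and neither value passed edgeR's test.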

How the results depend on the processing

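No paired analysis was possible because the labels carry animal codes and no replicate numbers shared between the groups. None of the 10 members was called in any of the 14 other settings or with any of the 11 mice left out, and their median log2 fold change ran from -0.04 to -0.0079 over the other settings and from -0.12 to 0.07 over the mice left out. The calls over all genes, 13 in the reported fit, were 845 with DESeq2, 450 with edgeR's likelihood ratio test, 421 at an adjusted p under 0.1, 32 with the robust fit, 20 with limma-voom, 20 with RLE scaling and 3 with the muscle covariate. The cause was not tested. Without Control 3 they were 292 and without Control 4 they were 89, without BMAd-DTA 3 they were 8 and without BMAd-DTA 4 they were 3, and without Control 1, Control 2, BMAd-DTA 1 or BMAd-DTA 6 they were 0. Partner calls went from 0 to 1 with DESeq2, the likelihood ratio test and adjusted p under 0.1, and stayed at 0 for every mouse left out. Other reticular stroma calls went from 0 to 5 with DESeq2, 2 with the likelihood ratio test and 1 at adjusted p under 0.1, and were 0 to 1 over the mice left out. Other niche signal calls went from 0 to 1 with DESeq2, the likelihood ratio test, the robust fit and adjusted p under 0.1, and were 0 to 2 over the mice left out, highest without Control 3.

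The direction of the fitted log2 fold change turned for genes near 0. It did so for Cxcr4 with library totals (-0.0069), Itgb1 with upper quartile scaling (0.010) and Itgb7 with the muscle covariate (-0.0052). Over the mice left out it ran from -0.11 to 0.10 for Cxcl12, -0.12 to 0.12 for Il7, -0.17 to 0.055 for Il15, -0.048 to 0.16 for Ebf3, -0.038 to 0.060 for Cxcr4, -0.0029 to 0.32 for Dpp4, -0.010 to 0.085 for Tie1, -0.071 to 0.30 for Angpt2, -0.042 to 0.047 for Itgb1 and -0.040 to 0.13 for Itgb7. The other 6 members kept their direction, from -0.58 to -0.34 for Lepr (edgeR adjusted p from 0.153 to 0.362), -0.32 to -0.07 for Kitl, 0.10 to 0.33 for Ebf1, -0.23 to -0.12 for Foxc1, 0.0091 (without Control 1) to 0.12 for Vcam1 and -0.38 (without Control 3) to -0.11 (without Control 4) for Angpt1. The difference in mean log2 CPM of the exact permutation test ran from -0.14 to 0.091 for Cxcl12, -0.15 to 0.11 for Il7, -0.21 to 0.064 for Il15, -0.074 to 0.14 for Ebf3, -0.60 to -0.36 for Lepr, -0.23 to -0.13 for Foxc1 and -0.38 to -0.11 for Angpt1. For Lepr it was -0.50 with library totals, with an exact permutation p of 0.0424, and p was under 0.05 without BMAd-DTA 4 or 5 as well. The Ebf1 to Ebf3 log2 ratio ran from -0.0045 to 0.31 and the Kitl to Cxcl12 log2 ratio from -0.24 to -0.15. Member counts were at least 61 per library, lowest for Il15, which also had the largest standard error of the 10. Depth, the number of mice and cell makeup were not compared as limits. Thpo did not pass the filter in 1 setting and with 1 mouse left out, and has no value there.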

Other observations

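The log2 ratio of Lepr to Cxcl12 within a library was read after both genes had been seen, and is given as values only. It was -3.52, -3.63, -3.35 and -4.10 in Control 1 to 4, and -4.25, -4.29, -4.16, -3.98, -4.17, -4.29 and -3.93 in BMAd-DTA 1 to 7. Control 4 was among the BMAd-DTA libraries on this measure, and the other 3 Controls were above all of them.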
